A study of Mus musculus with 36 samples.

Results

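The 9 genes described here belong to epithelial tight junctions or encode the adhesion molecule EpCAM, and were followed through the reprogramming of mouse fibroblasts to induced pluripotent cells with an inhibitor of the histone methyltransferase DOT1L. They were taken by name (Epcam, Cldn3, Cldn4, Cldn6, Cldn7, Ocln, F11r, Tjp1 and Tjp3) and are 9 of the 20325 genes of the deposited RNA-seq tables. There were 36 libraries, 2 for each of 18 groups. The inhibitor was SGC0946, and its controls received DMSO.

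All reprogramming cells were mouse embryonic fibroblasts (MEFs) taken at E13.5, homozygous at the Col1a1 locus for a cassette of Oct4, Klf4, Sox2 and c-Myc joined by 2A and IRES sequences, and heterozygous for the reverse tetracycline transactivator at Rosa26, so that doxycycline turned the 4 factors on in every such group. In the timecourse, day 2 cells received doxycycline with SGC0946 or with DMSO. Day 4 cells received SGC0946 on days 0 to 4 (the full window), on days 0 to 2 and DMSO afterwards (the early window), on days 2 to 4 after DMSO (the mid window), or DMSO throughout (control), and uninduced MEFs were the starting point. In the sort, cells were separated by FACS at day 3.5 into CDH1+ and CDH1- fractions, each then kept in doxycycline with SGC0946 or DMSO until day 5.5. In the lentivirus experiment, MEFs carried a Cdh1 or an empty lentivirus, either uninduced or after 2 days of doxycycline with SGC0946 or DMSO. V6.5 embryonic stem cells (ESCs), from which feeder cells had been removed 24 hours before harvest, completed the set. Feeder MEFs, irradiated, lay under the reprogramming cells, and their RNA could not be separated in the counts. The timecourse and sort RNA carried 20 ng of human 293T RNA per µg as a spike. In the MEF libraries of the timecourse, which carried the same spike, Cldn6 had 0 counts in both, Cldn3 2 and 0, Epcam 5 and 10, Cldn4 10 and 9 and Ocln 10 in each. Whether human reads add to the members' counts was not tested.

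Tight junctions seal the space between neighbouring epithelial cells. Claudins and occludin span the membrane and meet their partners on the next cell, junctional adhesion molecules sit beside them, and the ZO scaffolds link these proteins to actin. EpCAM is an epithelial adhesion molecule that binds claudin-7 and is abundant on pluripotent cells. Fibroblasts lack such junctions, and gaining them is part of the mesenchymal-to-epithelial transition that fibroblasts pass through on the way to pluripotency. The E-box CACCTG is the site at which repressors of epithelial genes of the SNAI and ZEB families are known to bind.

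The promoters of Epcam, Cldn3 and Cldn4 are shown because these genes were called higher with the inhibitor in several comparisons below, that of Cldn6 because it had the highest level of the member claudins in ESCs, and that of Tjp1 because its changes with the inhibitor were small. The sequences are RefSeq windows of build GRCm38.p6, from 250 bases before to 50 bases after the annotated start, read 5′ to 3′, with the E-box CACCTG or its reverse complement CAGGTG in capitals (a match to AACCGG, the core of Grainyhead-like sites, would also be in capitals).
Epcam, chr17:87635729-87636028, plus strand: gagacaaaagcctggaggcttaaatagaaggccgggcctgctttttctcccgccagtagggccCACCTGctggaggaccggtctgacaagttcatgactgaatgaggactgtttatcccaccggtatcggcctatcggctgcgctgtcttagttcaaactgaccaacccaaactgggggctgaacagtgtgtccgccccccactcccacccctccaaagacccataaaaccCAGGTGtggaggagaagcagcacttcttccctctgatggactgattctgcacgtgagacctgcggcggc
Cldn3, chr5:134985964-134986263, plus strand: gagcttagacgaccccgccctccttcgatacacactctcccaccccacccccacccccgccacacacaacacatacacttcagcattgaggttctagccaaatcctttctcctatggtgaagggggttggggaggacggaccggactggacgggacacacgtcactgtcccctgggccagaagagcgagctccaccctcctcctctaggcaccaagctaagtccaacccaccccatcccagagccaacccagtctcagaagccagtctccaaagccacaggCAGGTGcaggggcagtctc
Cldn4, chr5:134946885-134947184, minus strand: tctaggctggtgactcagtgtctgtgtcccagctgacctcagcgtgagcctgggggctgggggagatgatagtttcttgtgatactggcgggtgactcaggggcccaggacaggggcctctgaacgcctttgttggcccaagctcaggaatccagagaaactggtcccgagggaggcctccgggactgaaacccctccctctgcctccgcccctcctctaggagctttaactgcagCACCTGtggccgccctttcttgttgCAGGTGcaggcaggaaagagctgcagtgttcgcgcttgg
Cldn6, chr17:23679115-23679414, plus strand: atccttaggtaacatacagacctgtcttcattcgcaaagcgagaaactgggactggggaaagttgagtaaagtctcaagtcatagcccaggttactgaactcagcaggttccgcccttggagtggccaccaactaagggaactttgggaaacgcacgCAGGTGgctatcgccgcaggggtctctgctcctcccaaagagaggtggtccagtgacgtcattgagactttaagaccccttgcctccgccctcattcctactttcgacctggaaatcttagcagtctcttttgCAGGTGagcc
Tjp1, chr7:65371195-65371494, minus strand: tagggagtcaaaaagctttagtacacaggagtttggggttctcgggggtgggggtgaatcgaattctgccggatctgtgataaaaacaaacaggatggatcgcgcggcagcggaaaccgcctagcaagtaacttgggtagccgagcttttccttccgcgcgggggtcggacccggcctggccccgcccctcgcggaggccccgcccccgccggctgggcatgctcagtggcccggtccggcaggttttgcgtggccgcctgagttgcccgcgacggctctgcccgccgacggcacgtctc
All 9 members had at least 1 promoter in the table, 12 in all. The E-box letters stood in 10 of these 12 promoters, against 20.2% of all 32851 promoters of the same length. Both Ocln windows overlap and share 1 match, so the 12 are not separate. By gene the letters were found in 8 of 9 members, all but Tjp1. Tjp3, which was called in no comparison of inhibitor with control, had them in both its promoters. Tjp1, without them, was called in the full, early and mid windows. Whether the letters go with the changes was not tested. In Cldn4 the matches began 14 bases before and 12 bases into the transcript, in Epcam 187 and 19 bases before it, in Cldn6 93 bases before and 41 bases into it, and in Cldn3 32 bases into it. The Grainyhead-like core was in 3 of the 12 (1 promoter each of Cldn7, Ocln and Tjp3), against 6.83% of all promoters. The TATA box TATAAA was in 0 of the 12, against 13.6%, and the GC box GGGCGG in 9, against 35.7%. These are matches of letters on either strand and do not show that a factor binds. Cldn3 and Cldn4 lie on chromosome 5 on opposite strands.

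Levels are given as the deposited TPM, a share of a library's transcripts that accounts for gene length, per library in the order of replicate 1 and 2. Changes are log2 fold changes with standard errors from edgeR's quasi-likelihood test on the counts, and a call means a p under 0.05 after Benjamini-Hochberg adjustment over all genes tested. Library totals were 32.9 to 50.9 M counts in the timecourse, 34.9 to 43.1 M in the sort, 18.5 to 35.9 M in the lentivirus cells and 30.7 to 35.2 M in the ESCs. In the timecourse 7 of the 9 members passed the filter on low counts, and Cldn6 and Cldn7 did not. In the sort, and in the lentivirus cells with ESCs, all 9 passed, and in the lentivirus cells with ESCs through the ESC libraries for several of them. Cldn7 passed in the sort through the CDH1+ inhibitor libraries, with 28 and 36 counts, against 18 counts or fewer in the other sorted libraries. RNA from bulk cells cannot separate more cells expressing a gene from more RNA per cell. Whether the libraries of 2 groups overlapped is given as a description only. With 2 libraries per group, libraries can stand apart without a real difference, and the share of all genes that did so was not counted.

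At day 2, the inhibitor raised Epcam, Cldn3 and F11r. Epcam had 0.57 and 0.26 TPM in day 2 inhibitor cells, against 0.16 and 0.13 TPM in day 2 control cells. The libraries did not overlap, but they held only 27 and 14 counts against 7 and 6, and the log2 fold change was 1.45 ± 0.47 (adjusted p = 0.0251). Without replicate 1 of the inhibitor group it was 0.82 (adjusted p = 0.417), and without replicate 1 or 2 of the control group the adjusted p was 0.0843 and 0.168. Cldn3, which encodes a sealing claudin, had 3.73 and 3.98 TPM with the inhibitor and 1.89 and 1.37 TPM in control, a log2 fold change of 1.21 ± 0.18 (adjusted p = 3.60e-06) with no overlap. F11r, the gene of junctional adhesion molecule A, had 12.33 and 12.17 TPM with the inhibitor and 9.68 and 8.56 TPM in control (0.39 ± 0.08, adjusted p = 0.000166).

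These were 3 of the 7 members tested, against 8.73% of all 14473 genes called higher in that comparison. The median log2 fold change of the 7 was 0.94, against -0.00458 over all genes. Cldn4 had 5 and 6 counts with the inhibitor and 1 and 1 in control, a ratio of 4.81 with a counting interval (95%) of 1.05 to 44.7, and was not called. Ocln, the gene of occludin, Tjp3, that of the scaffold ZO-3, and Tjp1, that of ZO-1, gave 0.94 ± 0.61, 0.74 ± 0.59 and 0.07 ± 0.03 with no call. Cdh1, the gene of E-cadherin, changed by 1.29 ± 0.11 (adjusted p = 2.07e-11). Beside these changes, 2 of 4 tested trophoblast markers were higher, with summed levels of 3.36 to 3.37 TPM against 1.89 to 2.15 TPM and with Cdx2 and Elf5 at 0 in both inhibitor libraries. Of 3 tested keratinocyte markers Trp63 was higher (1.32 ± 0.33), with list sums of 1.08 to 1.29 TPM against 0.59 to 0.68 TPM and none at 0 with the inhibitor. Of 5 tested endothelial markers Kdr was higher (0.77 ± 0.21), with list sums of 31.07 to 31.94 TPM against 31.21 to 31.86 TPM and Tie1 and Cldn5 at 0. The part of such cells in the result was not tested.

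At day 4, cells held in the inhibitor for the full window had higher levels of 6 of the 7 members tested, all but Tjp3, against 19.0% of all genes called higher. Epcam had 4.17 and 3.71 TPM in full-window cells and 0.77 and 0.74 TPM in day 4 control cells (log2 fold change 2.36 ± 0.23, adjusted p = 4.58e-11). Cldn3 had 23.88 and 21.50 TPM with the inhibitor and 5.12 and 5.24 TPM in control (2.11 ± 0.11, adjusted p = 1.13e-18). Neither gene overlapped between the groups, and the fitted changes were 5.15-fold for Epcam and 4.32-fold for Cldn3.

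The remaining membrane genes were higher too, at lower levels except for F11r. Cldn4 had 0.82 and 0.84 TPM against 0.31 and 0.08 TPM (2.04 ± 0.45, adjusted p = 0.000323), full window first and control second. Ocln had 0.44 and 0.50 TPM in full-window cells and 0.08 and 0.16 TPM in control cells (1.99 ± 0.42, adjusted p = 0.000206). F11r had 49.33 and 53.42 TPM in full-window cells and 24.54 and 22.53 TPM in control cells (1.11 ± 0.06, adjusted p = 1.03e-18). None of the 3 genes overlapped between the groups.

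The scaffolds moved least. Tjp1 had 108.02 and 112.65 TPM in full-window cells and 86.63 and 87.10 TPM in control cells, which did not overlap, and rose by 0.33 ± 0.03 (adjusted p = 3.53e-11). Tjp3 had 0.65 and 0.63 TPM in full-window cells and 0.58 and 0.64 TPM in control cells, which overlapped (0.06 ± 0.31, 95% interval -0.58 to 0.69). The 2 untested claudins stayed near the floor of detection: Cldn6 had 3 and 3 counts with the inhibitor and 0 and 1 in control, and Cldn7 had 8 and 6 counts with it and 3 and 3 in control. The median of the 7 tested members was 1.99 on the log2 scale, against -0.00457 over all genes. Cdh1 changed by 1.84 ± 0.08 (adjusted p = 5.23e-21).

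**Figure D1:**
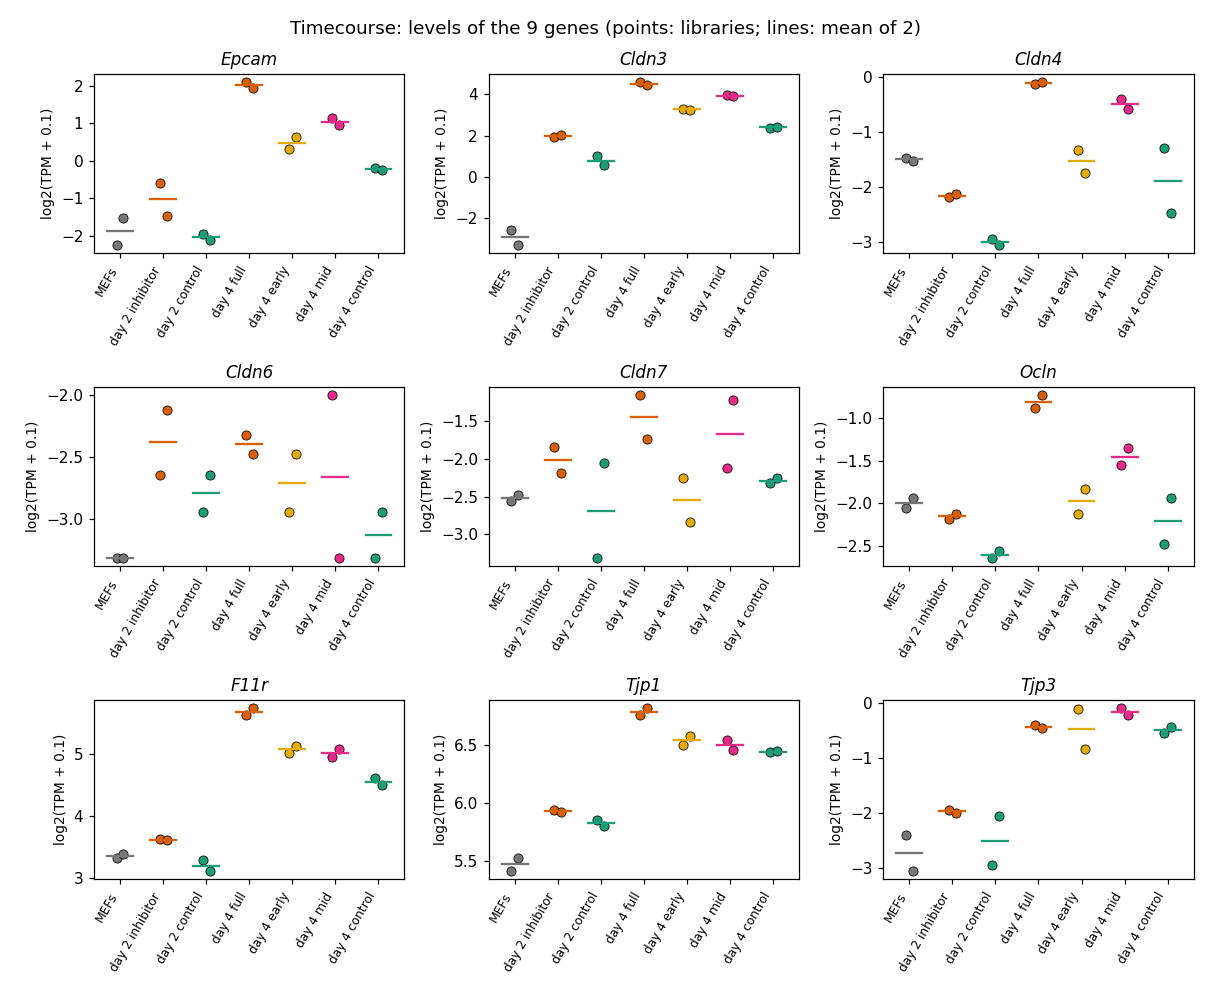
Levels of the 9 genes in the timecourse, as log2(TPM + 0.1), 1 panel per gene with its own scale. Points are libraries and lines the mean of 2. Epcam, Cldn3, Cldn4, Ocln, F11r and Tjp1 are highest in the day 4 full-window cells, with no overlap with the day 4 control, while Tjp3 overlaps between these groups.

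Marker genes of other cells moved beside the full-window changes. Of 4 tested trophoblast markers 4 were higher, with summed levels of 11.93 to 12.95 TPM in full-window cells and 3.77 to 3.83 TPM in control cells, and Cdx2 and Elf5 were at 0 in both full-window libraries. Of 4 tested pluripotency markers 3 were higher and 1 lower, with sums of 14.68 to 15.83 TPM and 11.24 to 11.63 TPM, and none of the 8 listed was at 0 with the inhibitor. Of 3 tested keratinocyte markers 1 was higher, with sums of 3.44 to 3.71 TPM and 1.78 to 1.88 TPM and Dsg3 at 0. Of 5 tested endothelial markers 2 were higher and 1 lower (13.56 to 14.45 TPM and 20.32 to 20.88 TPM), and of 7 leukocyte markers 1 was higher and 2 lower (165 to 167 TPM and 177 to 180 TPM). The part of these cells in the result was not tested. Fibroblast markers, which feeders also express, split into 4 higher and 4 lower of 10, with sums of 9582 to 9784 TPM and 9364 to 9416 TPM.

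Of the members, only Cldn3 was called between every pair of windows. The early, mid and full windows were each compared with the same day 4 control libraries. Cldn3 had 9.74 and 9.47 TPM after the early window, 15.49 and 14.90 TPM after the mid window and 23.88 and 21.50 TPM after the full window, against 5.12 and 5.24 TPM in control. No library of one of these groups reached the next. The log2 fold changes against control were 0.91 ± 0.12 for the early, 1.58 ± 0.12 for the mid and 2.11 ± 0.11 for the full window, and each was called.

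Epcam followed the same order of levels, with 1.15 and 1.46 TPM after the early window and 2.09 and 1.83 TPM after the mid window. Its change was called for the mid window (1.40 ± 0.26, adjusted p = 4.41e-05) and not for the early window (0.82 ± 0.26, adjusted p = 0.0587). F11r had 32.56 and 35.20 TPM after the early window and 30.87 and 33.92 TPM after the mid window, which overlapped. Both were called against control, at 0.55 ± 0.06 and 0.49 ± 0.06. Cldn4 was called for the mid window (1.66 ± 0.49, adjusted p = 0.00853) and had 0.30 and 0.20 TPM after the early window (0.35 ± 0.56, not called). Without replicate 2 of the day 4 control, the mid-window value of Cldn4 was 1.01 (adjusted p = 0.192), and without replicate 1 of the mid window it was 1.56 (adjusted p = 0.0574). Ocln gave 0.44 ± 0.51 for the early and 1.21 ± 0.48 for the mid window, neither called.

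The early window had 3 of 7 members called (Cldn3, F11r and Tjp1), against 3.19% of all genes called higher. The mid window had 5 of 7 (Epcam, Cldn3, Cldn4, F11r and Tjp1), against 14.0%. Beside these counts, the trophoblast marker Tcfap2c was higher after the early (1.14 ± 0.17) and the mid window (1.11 ± 0.18), with list sums of 5.80 to 5.94 TPM (early) and 5.69 to 6.54 TPM (mid) against 3.77 to 3.83 TPM in control, and Elf5 at 0 in both windows. Krt7 (0.77 ± 0.22) and the keratinocyte marker Trp63 (1.18 ± 0.15) were higher after the mid window. Keratinocyte sums were 1.57 to 1.78 TPM (early) and 3.80 to 4.13 TPM (mid) against 1.78 to 1.88 TPM in control, and the part of such cells was not tested. The calls of Tjp1 rested on small changes, 0.13 ± 0.03 and 0.10 ± 0.03. They were lost when either control library was left out, with adjusted p of 0.125 and 0.129 for the early and 0.120 and 0.142 for the mid window. The mid-window call of Tjp1 was also lost with RLE size factors (0.08, adjusted p = 0.0646) and with DESeq2 (adjusted p = 0.0886).

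Compared directly, the full window was above the early window in 6 of 7 members, all but Tjp3, against 16.6% of all genes called higher. It was above the mid window in 4 (Epcam, Cldn3, F11r and Tjp1), against 11.6%. Epcam was higher by 1.55 ± 0.21 than after the early window and by 0.96 ± 0.20 than after the mid window, and F11r by 0.56 ± 0.06 and 0.62 ± 0.06. The early window was below the mid window in 2 members, against 10.3% of all genes called lower: Cldn3 by -0.67 ± 0.11 (adjusted p = 1.21e-05) and Cldn4 by -1.31 ± 0.46 (adjusted p = 0.0365). The call of Cldn4 was lost when any 1 of the 4 libraries was left out, with adjusted p of 0.0613 to 0.283. F11r differed by 0.06 ± 0.06 between the early and mid windows (95% interval -0.06 to 0.17).

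A further test asked whether the full-window change departed from the product of the early and mid changes, and called 0 of 7 members, against 10.1% of all genes. DESeq2 also called 0, and in edgeR 2 of the 7 were under an unadjusted p of 0.05. Cldn3 stood at -0.38 ± 0.16 (95% interval -0.70 to -0.05, adjusted p = 0.131), Tjp1 at 0.11 ± 0.05 (adjusted p = 0.123), and F11r at 0.07 ± 0.08 (95% interval -0.10 to 0.23). This comparison was added after the values were seen.

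The inhibitor effect was larger at day 4 (full window) than at day 2 for 3 of 7 members, against 5.61% of all genes with a larger effect called. The differences between the log2 effects were 0.90 ± 0.23 for Cldn3 (adjusted p = 0.00671), 0.72 ± 0.10 for F11r (adjusted p = 5.86e-07) and 0.26 ± 0.05 for Tjp1 (adjusted p = 6.63e-05). Without replicate 1 of the day 2 control, the difference for Cldn3 was 0.64 (adjusted p = 0.225). With limma on log2(TPM + 1) 6 members were called, and 5 without the filter on low values. For Epcam it was 0.91 ± 0.59 and was not called (95% interval -0.27 to 2.09).

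**Figure D2:**
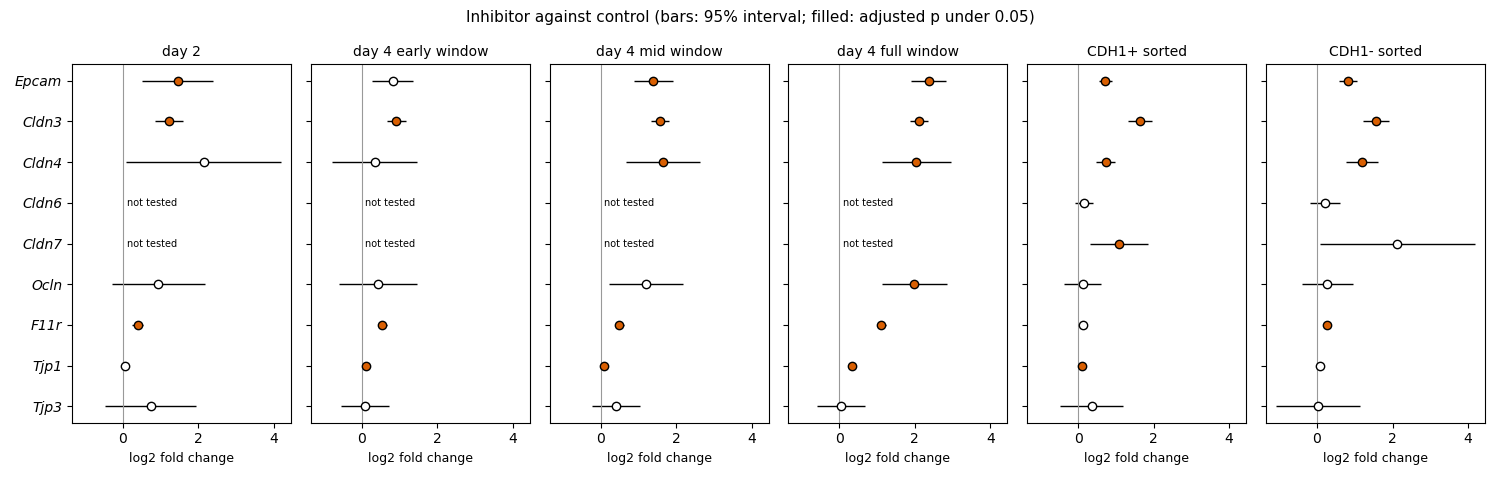
Log2 fold changes of inhibitor against control for the 9 genes, 1 panel per comparison, with 95% intervals. Filled points have an adjusted p under 0.05, and Cldn6 and Cldn7 were not tested in the timecourse. Cldn3 is filled in all 6 panels and lies between 0.91 and 2.11, while Tjp3 is filled in none. The lentivirus comparisons at day 2, in which Cldn3 was not called, are not drawn.

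Day 2 control cells, which had received doxycycline and DMSO, were also compared with uninduced MEFs. Cldn3 had 49 and 38 counts at day 2 and 2 and 0 counts in MEFs, a ratio of 40.1 with a counting interval of 10.8 to 336. F11r had 9.68 and 8.56 TPM at day 2 and 10.00 and 10.44 TPM in MEFs (-0.20 ± 0.08, adjusted p = 0.0199), a call that was lost without replicate 1 or 2 of the MEFs or replicate 2 of the day 2 control (adjusted p of 0.0560 to 0.254). Cldn4 had 1 and 1 counts at day 2 and 10 and 9 in MEFs, a ratio of 0.0971 with an interval of 0.0110 to 0.402, and was called lower. It did not pass the filter with the libraries of these groups alone. Tjp1 was higher by 0.32 ± 0.03. These were 2 members higher, against 40.4% of all genes, and 2 lower, against 34.0%. Both counts, of 7 tested, are shares below those over all genes. In the same comparison 7 of 7 leukocyte markers were lower, with sums of 42.56 to 45.26 TPM at day 2 against 317 to 326 TPM in MEFs and none at 0. Fibroblast markers were lower in 10 of 10 (7986 to 8131 TPM against 15306 to 15809 TPM) and trophoblast markers in 3 of 4 tested (1.89 to 2.15 TPM against 18.89 to 19.14 TPM, with Elf5 at 0 at day 2). Their part in these changes was not tested.

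By day 4, control cells had 5 of 7 members above MEFs, against 41.2% of all genes called higher. Tjp3, near 0 in MEFs with 0.09 and 0.02 TPM, reached 0.58 and 0.64 TPM in day 4 control cells (3.33 ± 0.52, adjusted p = 2.73e-07). Between day 2 and day 4 in control, 6 of 7 members rose (all but Ocln), against 38.1% of all genes. Tjp3, for which the inhibitor gave no call, was among them at 2.69 ± 0.46. Cldn4, also among them, had 13 and 3 counts at day 4 and 1 and 1 at day 2. It did not pass the filter with the libraries of these groups alone. Leukocyte markers were higher in 7 of 7, with sums of 177 to 180 TPM at day 4 against 42.56 to 45.26 TPM at day 2, and pluripotency markers in 3 of 4 tested, with sums of 11.24 to 11.63 TPM against 4.93 to 5.52 TPM and Zfp42 at 0 at day 4. Of 3 tested keratinocyte markers 1 was higher and 1 lower, with sums of 1.78 to 1.88 TPM against 0.59 to 0.68 TPM. The part of such cells was not tested. In day 4 full-window cells against day 2 inhibitor cells 7 of 7 rose, against 39.6%, and F11r did so by 2.04 ± 0.06. The early-window cells at day 4, without the inhibitor since day 2, were above the day 2 inhibitor cells in 5 of 7 members, against 38.4%. Cldn3 was at 1.32 ± 0.13 and Epcam at 1.67 ± 0.29. Control cells rose over these days too, in mean TPM from 1.63 to 5.18 for Cldn3 and from 0.145 to 0.755 for Epcam. The comparison therefore spans 2 days of reprogramming and does not isolate an effect of the earlier inhibitor.

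Of the 4 claudins among the members, Cldn3 had the highest level in the induced timecourse cells. Of the summed TPM of Cldn3, Cldn4, Cldn6 and Cldn7, it made up 95% in both libraries of the full-window cells and 92.6% and 96.0% in day 4 control cells. In the sorted cells at day 5.5 its share was 30.4% and 30.6% in CDH1+ inhibitor cells and 17.9% and 14.2% in CDH1+ control cells, and 61.3% and 60.3% in CDH1- inhibitor cells and 44.8% and 45.7% in CDH1- control cells. In ESCs it was 3.46% and 3.89%, where Cldn6 held 43.0% and 41.5%. In the day 2 lentivirus cells with the empty virus it was 36.6% and 33.0% with the inhibitor and 27.7% and 34.8% in control. With the Cdh1 virus it was 81.8% and 49.0% with the inhibitor and 41.7% and 78.5% in control. These lentivirus shares rest on 16 or fewer counts of Cldn3 a library. In each sorted fraction the share of Cldn3 was higher in both inhibitor libraries than in both controls, and within each treatment it was lower in both CDH1+ libraries than in both CDH1- libraries. The timecourse, sort, lentivirus and ESC libraries were separate experiments, and their shares are descriptions without a test.

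**Figure D3:**
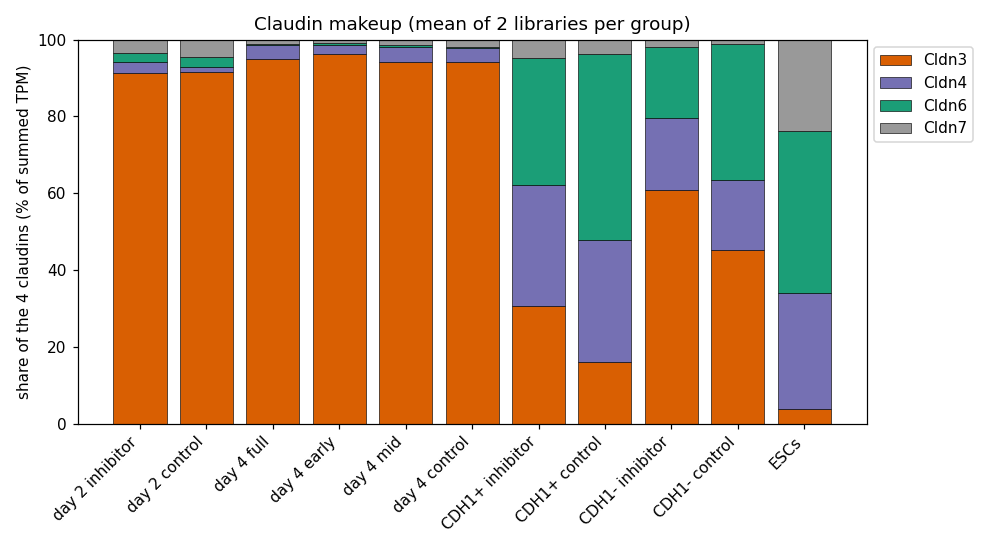
Share of each of 4 claudins in their summed TPM, in percent, as the mean of 2 libraries per group. Cldn3 takes over 90% in the day 2 and day 4 timecourse cells, shrinks in the sorted cells and most in the CDH1+ control, and is under 4% in ESCs, where Cldn6, Cldn4 and Cldn7 make up the rest. The lentivirus cells, in which Cldn3 had few counts and a smaller share at day 2 than in the timecourse, are not drawn.

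In the sorted cells the members differed in how they stood between the fractions and between treatments. In control cells, CDH1+ against CDH1-, 6 of 9 members were higher (Epcam, Cldn4, Cldn6, Cldn7, Ocln and F11r), against 12.8% of all 13968 genes called higher. Epcam had 10.28 and 10.46 TPM in CDH1+ cells and 3.59 and 3.03 TPM in CDH1- cells (1.61 ± 0.11, adjusted p = 5.74e-24). Cldn4 had 4.93 and 5.32 TPM in CDH1+ cells and 0.95 and 0.90 TPM in CDH1- cells (2.42 ± 0.19, adjusted p = 1.88e-21). Cldn6, which marks early epithelia and pluripotent cells, had 8.01 and 7.74 TPM in CDH1+ cells and 1.58 and 2.10 TPM in CDH1- cells (2.05 ± 0.16, adjusted p = 1.94e-20). None of these libraries overlapped between the fractions.

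Cldn7, the claudin that EpCAM binds, had 10 and 18 counts in CDH1+ cells and 0 and 2 in CDH1- cells, a ratio of 12.7 with a counting interval of 3.19 to 110. With the libraries of these control groups alone it did not pass the filter. F11r had 41.22 and 41.64 TPM in CDH1+ cells and 23.28 and 25.93 TPM in CDH1- cells (0.71 ± 0.05, adjusted p = 1.04e-22). Ocln had 0.90 and 0.69 TPM in CDH1+ cells and 0.37 and 0.32 TPM in CDH1- cells (1.15 ± 0.30, adjusted p = 0.00176), and without replicate 1 of the CDH1+ control the adjusted p was 0.0691. Cldn3 overlapped between the fractions, with 2.92 and 2.29 TPM in CDH1+ cells and 2.05 and 2.63 TPM in CDH1- cells. Its difference was 0.12 ± 0.21 (95% interval -0.30 to 0.53, not called). Tjp1 gave 0.04 ± 0.03 and Tjp3 0.70 ± 0.51, not called either. With the inhibitor, again 6 of 9 members were higher in CDH1+ cells, the same genes, against 1890 of all 13968 genes called higher. Calls in either direction were 26.8% of all genes. Cldn7, among the 6, passed the filter through the CDH1+ inhibitor libraries, the higher side here. Its call was therefore partly set by the filter. Cldn3 was at 0.19 ± 0.13 (95% interval -0.08 to 0.46).

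Markers of other cells moved with the CDH1 fractions. In control, 7 of 7 leukocyte markers were higher in CDH1+ cells, with summed levels of 96.9 to 100.3 TPM against 16.7 TPM in CDH1- cells and none at 0. Of 6 tested pluripotency markers 6 were higher, with sums of 23.77 to 25.80 TPM in CDH1+ cells and 10.88 to 12.19 TPM in CDH1- cells. Fibroblast markers summed to 9832 to 9865 TPM in CDH1+ cells and 9670 to 9916 TPM in CDH1- cells, ranges that overlapped. Of 4 tested trophoblast markers 3 were higher (Tcfap2c, Gata3 and Krt7), with sums of 11.13 to 12.02 TPM in CDH1+ cells and 6.63 TPM in CDH1- cells and Cdx2 at 0 in CDH1+ cells. Of 4 tested keratinocyte markers 2 were higher (Krt14 and Col17a1), with sums of 5.16 to 5.29 TPM and 1.58 to 2.59 TPM. The part of any of these cells in the difference of the members was not tested. Cdh1 itself was higher by 2.67 ± 0.07.

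The inhibitor raised Cldn3 in both fractions by nearly the same amount. In CDH1+ cells it had 8.36 and 8.20 TPM with the inhibitor and 2.92 and 2.29 TPM in control (1.64 ± 0.16, adjusted p = 4.02e-15). In CDH1- cells it had 7.54 and 6.63 TPM with the inhibitor and 2.05 and 2.63 TPM in control (1.57 ± 0.17, adjusted p = 5.91e-13). The difference between these effects was 0.07 ± 0.25, with a 95% interval of -0.42 to 0.56. The inhibitor libraries did not overlap the controls in either fraction.

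Epcam and Cldn4 rose with the inhibitor in both fractions as well. Epcam had 18.11 and 16.58 TPM in CDH1+ inhibitor cells and 10.28 and 10.46 TPM in CDH1+ control cells (0.72 ± 0.09, adjusted p = 4.00e-11). In CDH1- cells it had 6.24 and 5.64 TPM with the inhibitor and 3.59 and 3.03 TPM in control (0.82 ± 0.12, adjusted p = 3.68e-08). Cldn4 had 8.32 and 8.88 TPM in CDH1+ inhibitor cells and 4.93 and 5.32 TPM in CDH1+ control cells (0.73 ± 0.12, adjusted p = 1.27e-06). In CDH1- cells it had 2.22 and 2.12 TPM with the inhibitor and 0.95 and 0.90 TPM in control, a fitted 2.29-fold change (95% interval of the log2 fold change 0.77 to 1.62, adjusted p = 5.51e-06). Neither gene overlapped between inhibitor and control libraries in either fraction. Cldn6, which differed strongly between the fractions, gave 0.16 ± 0.12 in CDH1+ cells and 0.21 ± 0.20 in CDH1- cells, with 95% intervals of -0.08 to 0.40 and -0.19 to 0.61, and was not called in either. F11r was called in CDH1- cells (0.27 ± 0.05, adjusted p = 2.57e-05) and was at 0.12 ± 0.05 in CDH1+ cells (adjusted p = 0.0505).

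In CDH1+ cells 5 of 9 members were called (Epcam, Cldn3, Cldn4, Cldn7 and Tjp1; 4 of 8 without Cldn7, which passed the filter through these inhibitor libraries), against 8.33% of all genes called higher, and in CDH1- cells 4 of 9 (Epcam, Cldn3, Cldn4 and F11r), against 7.82%. Cldn7 had 1.29 and 1.33 TPM in CDH1+ inhibitor cells and 0.41 and 0.76 TPM in CDH1+ control cells (1.08 ± 0.39, adjusted p = 0.0374). Without replicate 1 of that control it was 0.71 (adjusted p = 0.410), and without replicate 1 or 2 of the inhibitor group the adjusted p was 0.0994 and 0.215. The change of Tjp1 in CDH1+ cells was 0.09 ± 0.03 (adjusted p = 0.0217) and was 0.04 (adjusted p = 0.545) without replicate 1 of the inhibitor group. Tests of the inhibitor effect between the fractions called 0 of 9 members, against 0.186% of all genes. DESeq2 and limma called 0, and in edgeR 1 member (F11r, -0.15 ± 0.07) was under an unadjusted p of 0.05. The interval of the difference was -0.40 to 0.20 for Epcam and -0.97 to 0.03 for Cldn4. For Cdh1 the effect was smaller in CDH1+ cells by -0.93 ± 0.09. Beside these changes, 4 of 6 tested pluripotency markers were higher with the inhibitor in each fraction, with sums of 33.44 to 33.83 TPM against 23.77 to 25.80 TPM in CDH1+ cells and 13.05 to 14.22 TPM against 10.88 to 12.19 TPM in CDH1- cells. The trophoblast markers Tcfap2c and Eomes were higher in both fractions, 2 of 4 tested, with sums of 15.17 to 15.40 TPM against 11.13 to 12.02 TPM in CDH1+ cells and 9.44 to 10.63 TPM against 6.63 TPM in CDH1- cells. Of 4 tested keratinocyte markers Krt14 and Trp63 were higher in CDH1- cells, with sums of 3.52 to 3.56 TPM against 1.58 to 2.59 TPM, and the sums in CDH1+ cells were 5.75 to 6.46 TPM against 5.16 to 5.29 TPM. Leukocyte markers were lower in 3 of 7 in CDH1+ cells, with sums of 69.88 to 71.36 TPM against 96.9 to 100.3 TPM, and 1 was higher and 1 lower in CDH1- cells, with sums of 12.36 to 13.53 TPM against 16.7 TPM. The part of such cells was not tested.

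**Figure D4:**
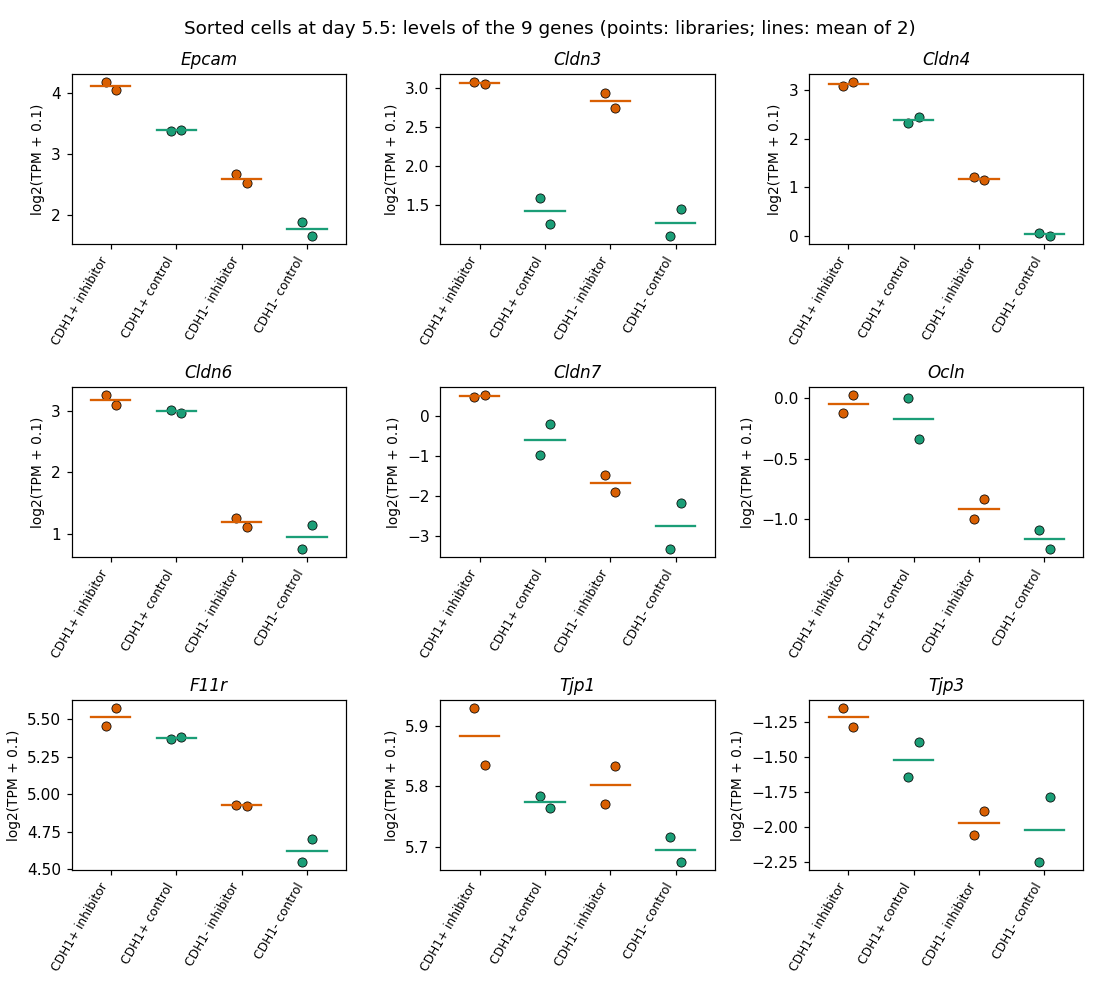
Levels of the 9 genes in cells sorted for CDH1, as log2(TPM + 0.1), 1 panel per gene with its own scale. Points are libraries and lines the mean of 2. Cldn3 is high in both inhibitor groups whatever the fraction, Cldn6 is high in both CDH1+ groups whatever the treatment, and Epcam and Cldn4 are ordered by both.

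Supplying Cdh1 by lentivirus left no member called in edgeR, though alternatives at day 2 called 1 or 2. Few genes of any kind were called in these comparisons, and all members but F11r and Tjp1 had low counts. A count of 0 therefore says little about the members. In MEFs, where the virus raised Cdh1 itself by 8.59 ± 0.18, 0 of 9 members were called, against 1.14% of all 15044 genes. DESeq2 called 0 as well, and in edgeR 2 of them were under an unadjusted p of 0.05, F11r at 0.17 ± 0.07 and Cldn4 with 9 and 4 counts with the Cdh1 virus and 2 and 0 with the empty virus. F11r had 51.88 and 55.72 TPM in MEFs with the Cdh1 virus and 50.66 and 46.50 TPM in MEFs with the empty virus and did not overlap. Tjp1 overlapped, with 49.73 and 46.82 TPM with the Cdh1 virus and 48.82 and 51.65 TPM with the empty virus. Leukocyte markers moved there too, 5 of 7 lower with the Cdh1 virus, with sums of 1524 to 1763 TPM against 2613 to 2873 TPM. F11r is expressed on leukocytes, and the part of such cells in its level was not tested. For replicate 2 of these Cdh1-virus MEFs, 1 label field names day 2 cells and the title names MEFs. Without it, no member was called either.

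At day 2 with DMSO, Epcam had 0.13 and 0.21 TPM with the Cdh1 virus and 0.74 and 0.66 TPM with the empty virus. The libraries did not overlap, and the log2 fold change was -2.02 ± 0.49 with an adjusted p of 0.0612. Epcam was called by DESeq2 and by edgeR with the libraries of these 2 groups alone, and Epcam and Cldn4 by edgeR without the filter on low counts. Cldn4 had 0 and 2 counts with the Cdh1 virus and 7 and 7 with the empty virus, a ratio of 0.120 with a counting interval of 0.0132 to 0.522, and Cldn3 had 1 and 10 counts with the Cdh1 virus and 5 and 4 with the empty virus. The call count was 0 of 9, against 0.897% of all genes, and Epcam and Cldn4 were under an unadjusted p of 0.05 in edgeR. With SGC0946 the Cdh1 virus again gave 0 of 9, against 0.532%, while 3 were under an unadjusted p of 0.05 in edgeR and DESeq2 called Epcam. There were 20 counts of Epcam over both libraries against 41 with the empty virus, a ratio of 0.317 with an interval of 0.176 to 0.553.

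Pluripotency markers moved in the same comparison. With DMSO, 5 of 8 were lower with the Cdh1 virus, with sums of 4.32 to 4.38 TPM against 12.27 to 16.19 TPM with the empty virus and none at 0 in both libraries. Leukocyte markers were lower too, 6 of 7, with sums of 133.4 to 136.6 TPM against 359.5 to 384.6 TPM. As a share of the ESC mean, Epcam stood at 0.0536 to 0.0867% with the Cdh1 virus and at 0.272 to 0.305% with the empty virus, and the summed pluripotency markers at 0.0751 to 0.0762% and 0.213 to 0.282%. What part a few pluripotent cells had in the level of Epcam was not tested.

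In the same lentivirus cells the inhibitor called 0 of 9 members with the empty virus at day 2, against 6.73% of all genes. DESeq2 called 0, and Tjp1 was under an unadjusted p of 0.05 in edgeR. Cldn3 had 0.45 and 0.66 TPM with the inhibitor and 0.33 and 0.23 TPM in control with the empty virus, from 5 and 10 counts against 5 and 4 (0.97 ± 0.71, 95% interval -0.51 to 2.45). The timecourse value of 1.21 lies within that interval. The level of Cldn3 in these day 2 cells did not exceed 10 counts a library, against 38 counts or more in the timecourse at day 2. With the Cdh1 virus 1 of 9 was called, against 2.82% of all genes called higher: Tjp1 had 60.50 and 66.55 TPM with the inhibitor and 56.39 and 53.50 TPM in control (0.22 ± 0.06, adjusted p = 0.0306). This call was lost without either control library (adjusted p of 0.0846 and 0.289). The inhibitor effect with the Cdh1 virus against the empty virus called 0 of 9 with edgeR, DESeq2 and limma, against 0% of all genes in edgeR, with no member under an unadjusted p of 0.05 in edgeR and an interval of -1.05 to 1.79 for Epcam.

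Day 2 cells with the empty virus had 4 of 9 members above MEFs with it (Epcam, Cldn4, F11r and Tjp1), against 33.4% of all genes called higher. That count is not far from the share over all genes. Cldn4 had 7 and 7 counts at day 2 and 2 and 0 in MEFs, and did not pass the filter with these groups alone. With the Cdh1 virus, F11r and Tjp1 were higher at day 2, against 33.4% of all genes, and Cldn4 and Tjp3 lower, against 32.6%. Both counts, of 9 tested, are shares below those over all genes. The lower calls rest on few counts. Cldn4 had 0 and 2 counts at day 2 and 9 and 4 in MEFs, and Tjp3 had 1 and 2 at day 2 and 5 and 6 in MEFs. With the libraries of these groups alone neither gene passed the filter. Replicate 2 of these MEFs is the library with the conflicting label. F11r rose by 0.68 ± 0.07 with the empty and by 0.44 ± 0.07 with the Cdh1 virus. With the empty virus leukocyte markers were lower at day 2 in 5 of 7, with sums of 359.5 to 384.6 TPM against 2613 to 2873 TPM in MEFs, and pluripotency markers higher in 6 of 8, with sums of 12.27 to 16.19 TPM against 1.06 to 1.09 TPM. With the Cdh1 virus leukocyte markers were lower in 6 of 7 (133.4 to 136.6 TPM against 1524 to 1763 TPM) and pluripotency markers higher in 1 of 8 (4.32 to 4.38 TPM against 0.51 to 0.88 TPM). Their part was not tested. In the timecourse F11r did not rise between MEFs and day 2. As a description across experiments, whose TPM are scaled for length differently, F11r had 50.66 and 46.50 TPM in MEFs with the empty virus and 10.00 and 10.44 TPM in the timecourse MEFs, beside leukocyte marker sums of 2613 to 2873 TPM and 317 to 326 TPM. These values were not compared by a test.

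ESCs had 8 of 9 members above MEFs with the empty virus, all but F11r, against 44.5% of all genes called higher. Of the 8, Cldn4, Cldn6, Cldn7, Ocln and Tjp3 had no more than 12 counts in any lentivirus library. They passed the filter on low counts through the ESC libraries, the higher side here, so their calls were partly set by the filter. Epcam had 225.95 and 258.69 TPM in ESCs, with 7889 and 10384 counts against 0 and 4 in MEFs (11.57 ± 0.21). Cldn6 had 118.72 and 113.36 TPM in ESCs and 0 counts in both MEF libraries, at least 735-fold higher when 3 counts per library are taken as the floor. Cldn4 had 80.60 and 86.03 TPM in ESCs with 2 and 0 counts in MEFs, a ratio of 1921 with a counting interval of 532 to 15870. Cldn7 had 67.32 and 63.27 TPM in ESCs and 0.08 and 0.11 TPM in MEFs. The ESCs were another line and a separate experiment, fitted together with the lentivirus libraries. Cell type, line and experiment therefore cannot be told apart in this comparison.

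Cldn3, the highest of the 4 member claudins in the induced timecourse cells, was the lowest member in ESCs. It had 9.56 and 10.62 TPM there, below Ocln with 12.62 and 13.12 TPM and Tjp3 with 12.90 and 12.00 TPM, which overlapped each other. Above these stood F11r with 40.11 and 39.58 TPM, Tjp1 with 60.83 and 60.70 TPM and Cldn7, each pair of neighbours without overlap. F11r was at 0.13 ± 0.07 against MEFs with the empty virus on the log2 scale of the counts (95% interval -0.01 to 0.28, not called), while its TPM was lower in ESCs. Tjp1 was higher by 0.69 ± 0.06. Fibroblast markers were lower in ESCs in 10 of 10, with sums of 246 to 269 TPM against 16547 to 17315 TPM.

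**Figure D5:**
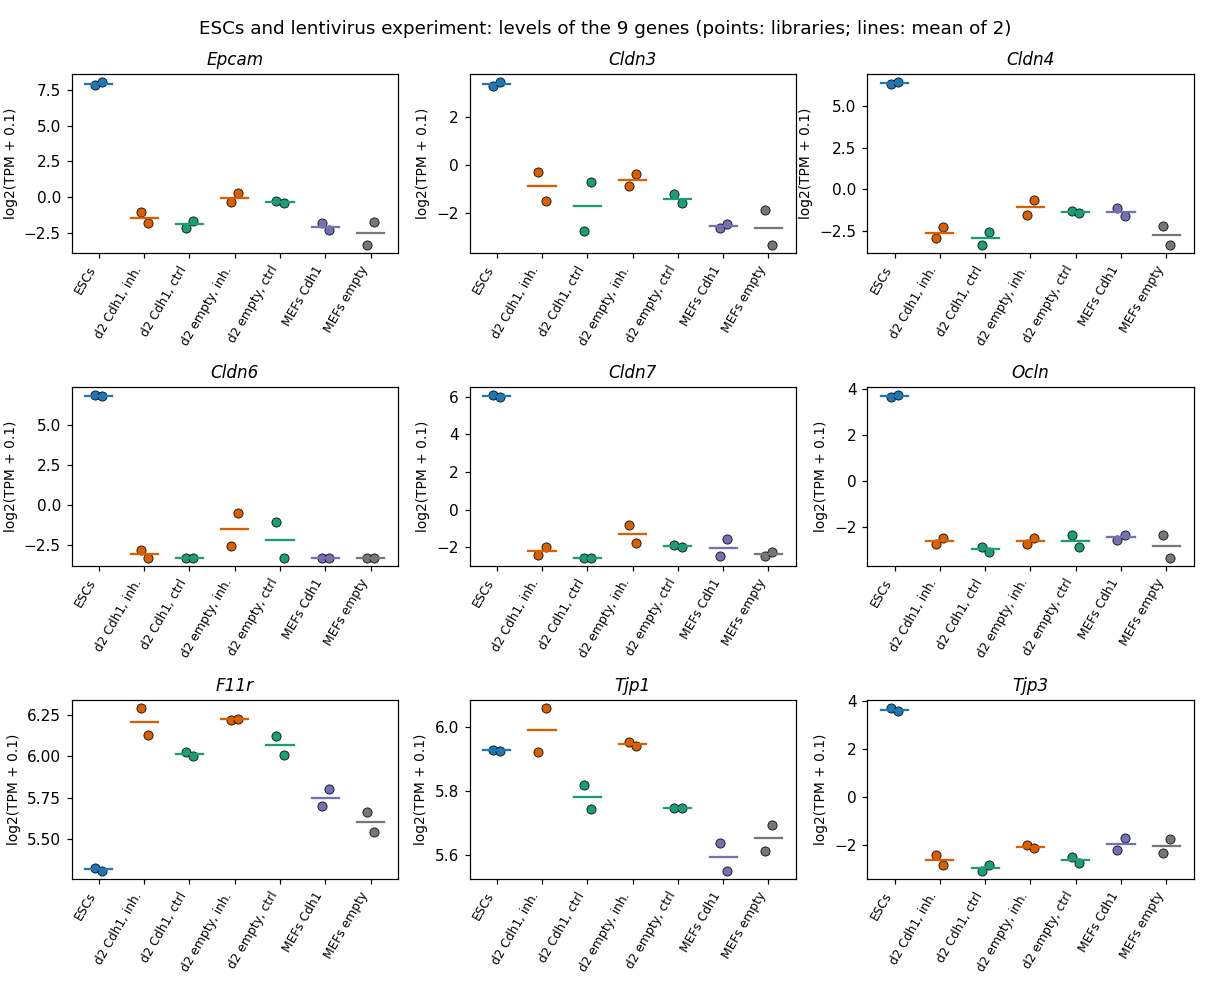
Levels of the 9 genes in ESCs, in day 2 cells and in MEFs carrying the Cdh1 or the empty lentivirus, as log2(TPM + 0.1), 1 panel per gene with its own scale. Points are libraries and lines the mean of 2. In 7 panels ESCs lie far above all other groups, for Tjp1 they lie among the day 2 cells, and for F11r the 2 ESC libraries (40.11 and 39.58 TPM) lie below all others.

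Other genes of the junctions were counted from lists. The shares over all genes called in the full window against the day 4 control, 19.0% higher and 15.8% lower, apply to every list count below, and several are near them. In the full window against the day 4 control, of 10 other membrane proteins of tight junctions 6 were tested, 4 were higher and 1 was lower, with a median of 1.29. Lsr, the gene of angulin-1 at tricellular contacts, rose by 2.10 ± 0.17, and Jam2, the gene of junctional adhesion molecule B, by 0.81 ± 0.06. Of 17 other claudins 8 were tested, 1 was higher and 1 lower, with a median of 0.29. Of 18 scaffold and polarity proteins 5 were higher and 6 lower, with a median of -0.10. Prkci, the gene of the polarity kinase aPKC iota, fell by 0.44 (± 0.03) and Magi1, a scaffold, fell by 0.52 (± 0.05).

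Among the other claudins, claudin-11 (Cldn11) rose in the mid window by 0.72 ± 0.09 and claudin-12 (Cldn12) fell by 0.12 (± 0.04).

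EpCAM is cut by the membrane proteases matriptase and ADAM17, and the matriptase inhibitors Spint1 and Spint2 belong to the same system. Of 7 tested genes of this group 3 were higher and 2 lower in the full window, with a median of -0.09. Spint1 rose by 1.87 ± 0.09 and Spint2 by 0.89 ± 0.06. Among 10 adherens junction genes 3 were higher and 2 lower (median 0.02), led by Cdh1 and by Jup, the gene of plakoglobin, at 0.40 ± 0.03.

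Regulators of epithelial genes were counted as well. Of 8 tested epithelial transcription and splicing regulators 4 were higher and 1 lower in the full window, with a median of 0.94. Ehf, an epithelial ETS factor, rose by 1.53 ± 0.12. Of the 6 transcription factors of the epithelial-to-mesenchymal transition 2 were higher and 2 lower, with a median of 0.07. Twist2 fell by 1.02 (± 0.08) and Zeb1 by 0.30 (± 0.04), while the 2 that rose are not named here. The summed levels of the 6 were 126.28 to 132.19 TPM in full-window cells and 133.66 to 135.69 TPM in control cells. In the sorted cells Zeb1 fell by 0.14 (± 0.04) in CDH1+ and by 0.15 (± 0.04) in CDH1- cells.

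Among the genes whose level followed Epcam most closely over the 14 timecourse libraries were, by Pearson's r on log2(CPM + 1), Ccdc80 (0.979), Larp6 (0.977) and Pkp3 (0.977). Epcam lay at 0.127 to 4.32 CPM in these libraries, so the added 1 shapes its scale. Pkp3 encodes a plakophilin of desmosomes. Over the 8 sort libraries the r with Epcam was 0.860 for Ccdc80, -0.116 for Larp6 and 0.811 for Pkp3. Over the 14 lentivirus and ESC libraries it was -0.952 for Ccdc80, -0.945 for Larp6 and 0.986 for Pkp3. In that last set Epcam had 265 and 307 CPM in the ESC libraries and at most 1.10 CPM in the others. The r there mainly records whether a gene was higher or lower in ESCs than in the other cells. Pkp3 had a high r in the timecourse and the sort as well. These libraries share treatments and days, and the values are descriptions. Within the members, on the same scale, Cldn3 had an r of 0.93 with Epcam in the timecourse and 0.51 in the sort, while Cldn4 had 0.88 and 0.99.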

How the data were processed

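The 36 libraries were grouped by their titles. RNA was extracted with TRIzol and sequenced after TruSeq V2 library construction, per the labels, paired-end for the timecourse and sort. The submitters' processing notes name RSEM 1.2.4, Trimmomatic and Bowtie, the last 2 without a version, and the builds mm9 and hg18. The deposited expected counts are RSEM's estimates, not normalized, in which reads matching several genes (such as similar claudins) are divided by its model. The deposited TPM values are scaled by RSEM for effective length, which equals gene length in the lentivirus and ESC tables and is shorter in the others, so TPM was tested within experiments only, and values of different experiments stand side by side as descriptions. Expected counts were rounded and tested in R 4.3.3 with edgeR 4.0.16 (TMM, filterByExpr with minimum count 10 and minimum total 15, robust quasi-likelihood fits) in 3 fits: the timecourse (14473 genes), the sort (13968) and the lentivirus cells with ESCs (15044), with 7, 4 and 7 residual degrees of freedom. In each of 28 comparisons a call means p under 0.05 after Benjamini-Hochberg adjustment over all genes of the fit. The scripts were tested on simulated data.

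Whether both libraries of a group are separate cultures is not stated in the labels, so p-values measure the spread between these libraries, which may be technical. Counting intervals are exact 95% intervals of a ratio of counts and cover counting error only, and the floor is 3 counts, 0.0590 to 0.162 CPM per library. In every group the libraries differed by more than counting noise.

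The members and gene lists were chosen with earlier results of these data known. The text names all 9 members, Cdh1, from each list up to 2 called genes with the smallest p and a mean log2 CPM of at least 1 in the inhibitor comparisons, and the 5 genes most correlated with Epcam over the timecourse. A few of the genes so chosen are not reported here. The comparison of the full window with the product of the other windows was added after seeing the data. The alternatives were DESeq2 1.42.0, RLE size factors, no filter on low counts, limma 3.58.1 on log2(TPM + 1) and log2(TPM + 0.1), with and without a filter, the libraries of the compared groups alone, a replicate block, and each library left out. Sequences and motif positions came from RefSeq (GRCm38.p6). No coordinates of the files' own build were used.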

Additional observations from a re-analysis of the deposited data

Results flagged for a closer look

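The inhibitor effect differed between day 4 (full window) and day 2 by edgeR's test of the difference itself for 3 members, each with a larger effect at day 4. The differences on the log2 scale were 0.90 for Cldn3 (adjusted p = 0.00671), 0.72 for F11r (adjusted p = 5.86e-07) and 0.26 for Tjp1 (adjusted p = 6.63e-05). For F11r the effects were 1.11 ± 0.06 at day 4 and 0.39 ± 0.08 at day 2, for Cldn3 2.11 ± 0.11 and 1.21 ± 0.18, and for Tjp1 0.33 ± 0.03 and 0.07 ± 0.03. Both libraries of each inhibitor group lay above both controls at both days for all 3 genes. The call for Cldn3 was lost without replicate 1 of the day 2 control (0.64, adjusted p = 0.225), and the calls of F11r and Tjp1 were kept when any single library of these groups was left out. With limma on log2(TPM + 1) the same test called 6 members, and 5 without the filter on low values.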

How the results depend on the processing

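No value changed direction where a member had been called. The count of members called differed by over 1.5 times in the following settings. For the mid window against control, with 5 called, leaving out a library gave 3 to 5, and without replicate 2 of the control or replicate 1 of the mid window it gave 3. For the early against the mid window, with 2 called, DESeq2 gave 1 and every left-out library gave 1. For the difference between day 4 and day 2 effects, with 3 called, limma on log2(TPM + 1) gave 6 and 5 without the filter. For the inhibitor in CDH1+ cells, with 5 called, DESeq2 and limma on log2(TPM + 0.1) gave 3, and left-out libraries 3 to 4, with 3 without replicate 1 of the control. For the Cdh1 virus at day 2, with 0 called, DESeq2 gave 1, the libraries of these groups alone 1 and no filter 2. With inhibitor, also at 0, DESeq2 gave 1 and no filter 2. For the inhibitor with the Cdh1 virus, with 1 called, all 3 limma settings and the libraries of these groups alone gave 0, and left-out libraries gave 0 to 1. For day 2 against MEFs with the Cdh1 virus, with 4 called, the groups alone gave 2. In the groups-alone fits 6 calls could not be tested, because those genes did not pass the filter there. Where a left-out library leaves 1 in a group, that library is assumed to vary like the others. Apart from the smaller sets of libraries or genes, the cause of these differences was not tested.

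Replicate numbers are shared between groups, but the labels give them no meaning. Same-numbered libraries had correlations of their deviations of -0.0779 to 0.0886 in the timecourse, -0.0747 to 0.0405 in the sort and -0.160 to 0.142 in the lentivirus fit (5 of 21 pairs over 0.1), so the numbers were not taken as pairs. With a replicate block, the count for the Cdh1 virus at day 2 was 1 in place of 0 (Epcam), and 6 of 7 members were called for the full window and 3 of 7 at day 2, as without it. The low counts of Cldn4, Cldn6, Cldn7 and Ocln in the timecourse, and of all members but F11r and Tjp1 in the lentivirus cells, limit what could be detected.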
